A study of Mus musculus with 12 samples.

Results

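Untreated TFEB/TFE3 DKO MEFs were compared with untreated Null MEFs by RNA-Seq, over all genes of the count table. The comparison took every library whose label gives the genotype and no etoposide, 3 for each genotype, so 6 of the 12 libraries in the series. MEFs, fibroblasts grown from mouse embryos, were used as lines immortalized with SV40. The study states that this immortalization can alter the stability of p53 and so confound, which bears on the p53 genes below. The control line is named Null in the labels and WT in the study, and the DKO line carries CRISPR edits in both Tfeb and Tfe3. Each genotype was represented by 1 line, so the edits and any other difference between the lines cannot be told apart. The labels call these cells untreated, while the methods of the study describe vehicle (DMSO) for the control cells. The other 6 libraries, from the same lines after 8 hr in 100 µM etoposide, a topoisomerase II poison that breaks DNA, entered the same model and served to ask whether a difference was also seen in other libraries. Counts on genes ranged from 66956083 to 83970210 in the Null libraries (median 67654759) and from 66749645 to 104120871 in the DKO libraries (median 74826945).

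TFEB, TFE3, MITF and TFEC make up the MiT/TFE transcription factors, which bind DNA as dimers. They are held in the cytosol when mTORC1 phosphorylates them at the lysosome, and enter the nucleus on starvation or stress. There they bind E-boxes, and in particular the longer CLEAR element found in front of many lysosomal and autophagy genes. The family is known for driving lysosome biogenesis and autophagy.

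The edited genes were examined first. Tfeb (chromosome 17, 47737030 to 47792419, GRCm38) measured 38.9, 39.2 and 42.1 CPM (counts scaled to a common TMM-adjusted library total) in the Null libraries and 4.60, 6.09 and 4.68 CPM in the DKO libraries. The groups did not overlap, and the log2 fold change (DKO minus Null, with a negative value for lower in DKO) was -2.94 ± 0.09 (SE, n = 3 and 3, adjusted p = 1.05e-14). Tfe3 (chromosome X, 7762560 to 7775202) was at 115, 109.9 and 114 CPM in Null and 94.1, 93.1 and 90.96 CPM in DKO MEFs. It was thus lower by far less, with a log2 fold change of -0.29 ± 0.04 (adjusted p = 8.68e-06). A count over the whole gene does not show whether a transcript carries an edit, so the Tfe3 level does not check the edit of that gene. Mitf (chromosome 6, 97807052 to 98021349) went the other way, from 8.63, 9.14 and 8.94 CPM in Null to 42.9, 42.5 and 44.4 CPM in the DKO libraries, with a log2 fold change of 2.28 ± 0.05 (adjusted p = 2.53e-16). Every DKO library was above every Null library. Tfec was not detected in the 6 libraries.

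**Figure D1:**
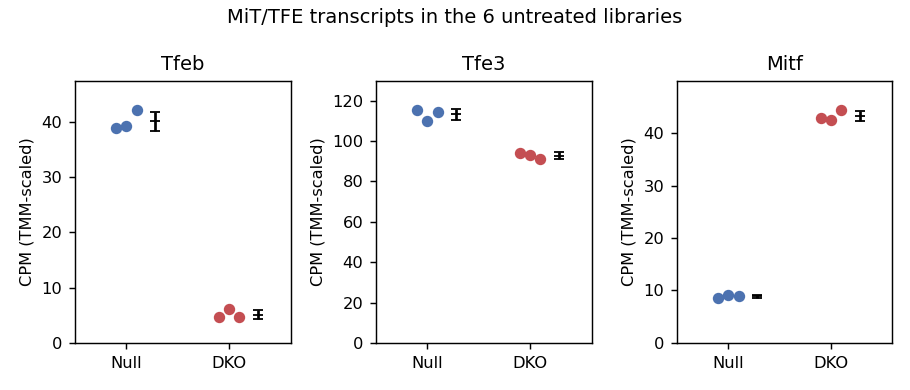
CPM after TMM scaling of Tfeb, Tfe3 and Mitf in each untreated library, with the mean and SD of the 3 libraries beside the points. Tfeb averaged 40.1 ± 1.78 CPM in Null and 5.12 ± 0.835 CPM in DKO MEFs, and Mitf 8.90 ± 0.261 and 43.3 ± 0.980 CPM.

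Across the genome the lines differed at most genes. Of 15220 genes tested, 10157 passed the threshold of 0.05 on the adjusted p (66.7%), 5066 of them higher in DKO MEFs (33.3%) and 5091 lower (33.4%). At least 2-fold differences were called for 1167 genes higher and 1651 lower (18.5% of the genes tested together). With a mean of at least 1 CPM required, which leaves fewer genes to test, these numbers were 856 and 966. Differences of 8-fold or more were called for 239 genes higher and 752 lower. Many of them lie at the floor: 376 of those lower had 3 or fewer counts over the DKO libraries and 56 of those higher had 3 or fewer over the Null libraries, so their fitted folds depend on the small count added by the fit. The rest were 183 genes higher and 376 lower. Under the 1 CPM filter 128 genes were higher and 326 lower by 8-fold or more, and limma-trend gave 158 and 447. Another 206 of the tested genes had no count in any untreated library and entered only through the etoposide libraries. The first principal component of the 6 libraries held 85.4% of the variance and separated the genotypes. The split of calls depends on the scaling: with library size in place of TMM factors, 3977 genes were higher and 6393 lower, and the median over all genes moved from -0.02 to -0.14 on the log2 scale. Small differences below are therefore relative to TMM scaling. The shares over all genes tested that stand beside list counts, 33.3% higher and 33.4% lower, are those of TMM scaling too. Nothing in the labels says that replicates were separate cultures, so p-values measure the spread between these libraries, which may be technical.

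Because the CLEAR element links the family to its targets, RefSeq promoters (GRCm38.p6, 250 bases before to 50 after each start) were searched for the E-box CACGTG and for TCACGTGA, an 8-letter core that contains it. Each reads the same on both strands. Among all 27025 genes with a promoter, 8.09% held the E-box and 1.12% the longer core. Among genes tested these shares were 11.2% and 2.01%. Genes called higher held the core in 2.38%, genes called lower in 2.01% and genes not called in 1.60%. In the lysosomal lists the core stood in front of 2 of 31 hydrolases, 2 of 10 cathepsins, 4 of 26 membrane proteins and 3 of 16 V-ATPase subunits with a promoter, and of 1 of 45 autophagy and 0 of 30 mTORC1 genes. Some of these windows, of 28 bases before a RefSeq start, are shown 5′ to 3′ with the core in capitals, since they are places where members of these lists carry the letters the family is known to bind:
Atg3, chr16:45158747-45158774, plus strand: gagagtcgagTCACGTGAggccttaggt
Atp6v1a, chr16:44139374-44139401, minus strand: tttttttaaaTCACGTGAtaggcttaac
Cln3, chr7:126583341-126583368, minus strand: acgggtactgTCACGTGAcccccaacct
Ctsd, chr7:142387909-142387936, minus strand: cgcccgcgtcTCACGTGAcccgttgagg
Gla, chrX:134601216-134601243, minus strand: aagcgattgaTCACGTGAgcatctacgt
Mcoln1, chr8:3500463-3500490, plus strand: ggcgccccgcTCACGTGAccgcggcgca
By GENCODE M21, the Atg3 window lies outside genes, the Atp6v1a window lies in an intron of Atp6v1a, the Cln3 window lies in an exon of Cln3, the Ctsd window lies in an exon of Ctsd, the Gla window lies in an exon of Hnrnph2 and the Mcoln1 window lies in an exon of Mcoln1. A match is a description of the letters and not of binding. The genes behind the windows shown did not move together, and list members with the core whose windows are not shown were left out of this comparison. Gla (alpha-galactosidase), Ctsd (cathepsin D), Cln3 (a lysosomal membrane protein) and Atg3 (an enzyme of LC3 lipidation) were higher in DKO MEFs, with log2 fold changes of 0.72, 0.43, 1.18 and 0.20. Atp6v1a, a catalytic V-ATPase subunit, and Mcoln1, a lysosomal calcium channel, were lower at -0.25 and -0.19. With library size alone, Atg3 no longer passed the threshold.

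Lysosomal hydrolases, which digest lipids, glycans and proteins, were more often higher than lower in DKO MEFs. Of 41 measured, 23 were higher and 9 lower, with a median log2 fold change of 0.21 against -0.02 over all genes tested, of which 33.3% were higher and 33.4% lower. With library size alone, 21 hydrolases were higher and 13 lower, beside 3977 and 6393 of the 15220 genes tested. The beta-mannosidase Manba measured 3.50, 3.06 and 3.20 CPM in Null and 13.4, 14.4 and 15.7 CPM in DKO libraries (2.15 ± 0.09 on the log2 scale). Idua, which degrades glycosaminoglycans, was higher by 1.97 ± 0.12, and the esterase Siae by 1.21 ± 0.08. Among members called lower, the largest fall was that of Gaa, the acid alpha-glucosidase, at -0.66 ± 0.05, followed by the arylsulfatase Arsa at -0.31 ± 0.05. Among 12 cathepsins and related proteases, 6 were higher and 4 lower (median 0.12). Ctsc, which activates serine proteases, was far lower in DKO MEFs, at 28.2, 29.4 and 31.4 CPM in Null and 0.271, 0.207 and 0.0503 CPM in DKO libraries. Ctsh, Ctsz and Ctsl were higher by 1.00, 0.69 and 0.32, and Ctsw was lower at -0.46.

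Of 30 lysosomal membrane proteins, 17 were higher and 7 lower (median 0.16), or 10 and 9 with library size alone. All genes tested gave 33.3% higher and 33.4% lower with TMM scaling, and 3977 of 15220 higher and 6393 lower with library size alone. Lamp2, a main glycoprotein of the lysosomal membrane, measured 216, 214 and 202 CPM in Null and 490.2, 488 and 507 CPM in DKO libraries. The transport receptor Scarb2 was higher by 1.21 ± 0.05. The polyamine transporter Atp13a2 was lower at -0.89 ± 0.06, and the channel Tpcn1 at -0.51 ± 0.07. Of 19 subunits of the V-ATPase, the pump that acidifies lysosomes, 8 were higher and 5 lower (median 0.03), or 7 and 9 with library size alone. The accessory subunits Atp6ap2 and Atp6ap1 were higher by 1.34 and 1.10, and the isoforms Atp6v0e2 and Atp6v0a4 lower at -2.29 and -1.26.

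The Rag GTPases and their partners recruit mTORC1 to the lysosome. In this list 9 of 35 members were higher and 18 lower (median -0.12), where 33.3% of all genes tested were higher and 33.4% lower. Rragd measured 3.93, 3.87 and 4.32 CPM in Null and 0.105, 0.109 and 0.0671 CPM in DKO libraries. Rragb, whose product pairs with that of Rragd, changed in the opposite direction, from 2.09, 1.86 and 1.98 CPM to 13.2, 13.4 and 13.5 CPM. The mTORC1 scaffold Rptor and the leucine sensor Sesn2 were lower at -0.75 and -0.79, and the folliculin partner Fnip1 was higher by 1.00. Of 55 autophagy genes, 29 were higher and 13 lower (median 0.15), or 20 and 17 with library size alone. That scaling gave 3977 higher and 6393 lower over all 15220 genes tested. The initiation factor Rb1cc1 stood at 151, 157 and 144 CPM in Null and 620.0, 599 and 622 CPM in DKO MEFs, and the kinase Ulk2 was higher by 1.19. Dram1 was lower at -3.08 and the LC3 relative Gabarapl1 at -0.83.

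**Figure D2:**
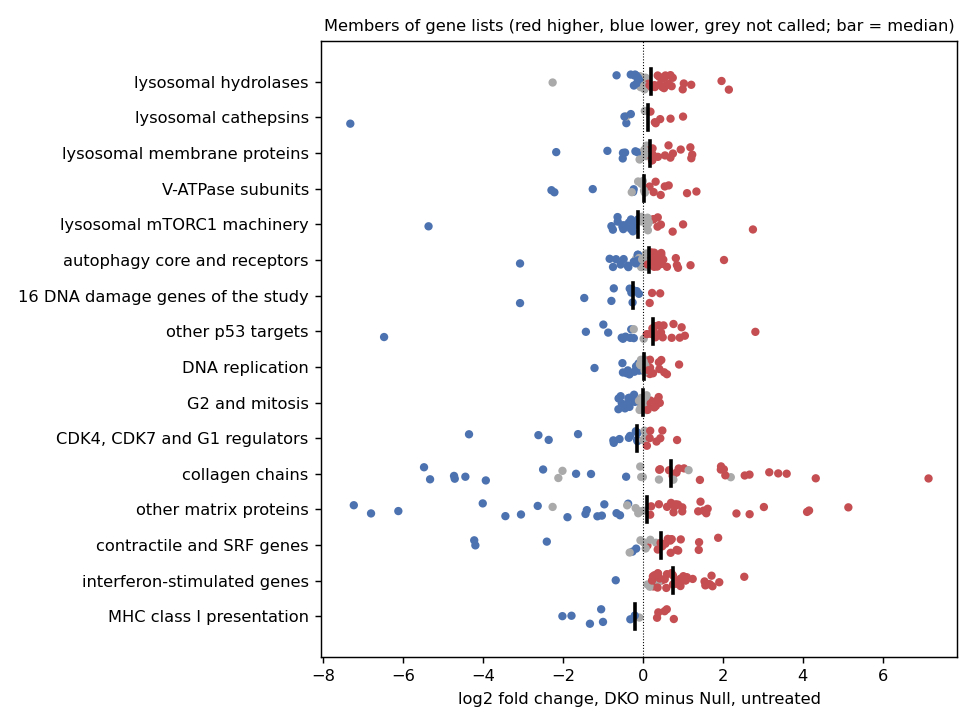
Log2 fold change (DKO minus Null, untreated) of each measured member of 16 gene lists, with the list median as a bar. The interferon-stimulated genes lie almost wholly to the right of 0 (median 0.75), while the lysosomal lists spread to both sides.

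The study singled out 16 genes of the DNA damage response, chosen on this experiment, so their direction is not independent evidence. In untreated cells 12 were lower in DKO MEFs and 3 higher, beside 33.4% lower and 33.3% higher over all genes tested, and Laptm5 was at or under 3 counts over each group. Dram1 had the largest fall, from 16.7, 15.8 and 16.5 CPM to 1.64, 2.05 and 2.10 CPM. Next came the receptor Egfr at -1.47 ± 0.05, Sesn2 at -0.79 ± 0.04 and the CDK inhibitor Cdkn1a at -0.73 ± 0.05. Falls between -0.33 and -0.10 were measured for Wrap53, Sesn1, Bbc3, Trp53, Trp53inp1, Foxo3, Mdm2 and Rad9a. The apoptosis effector Bax and the protease Ctsd were higher by 0.23 and 0.43, and the kinase Chek2 by 0.17. The calls of Rad9a (adjusted p = 0.0421), Chek2 (0.0442) and Trp53inp1 (0.0176) were each lost when single libraries were left out, Rad9a without Null replicate 1 or 3 or DKO replicate 1 or 3, Chek2 without Null replicate 1 or 3 or DKO replicate 2 or 3, and Trp53inp1 without Null replicate 1 or DKO replicate 2 or 3. Without single libraries the highest adjusted p was 0.206 for Rad9a, 0.306 for Chek2 and 0.121 for Trp53inp1. Rad9a was also not called with DESeq2, without a filter, with thinned libraries or with the replicate number as a block. Trp53inp1 was also not called with DESeq2, limma-trend or robust dispersion. Chek2 was also not called without a filter, with a mean of at least 1 CPM required or with thinned libraries. The 6 untreated libraries alone and the replicate block also left Chek2 not called. Over all alternatives the adjusted p ranged from 1.76e-04 to 0.206 for Rad9a, from 3.21e-04 to 0.121 for Trp53inp1 and from 0.00493 to 0.577 for Chek2. Log2 fold changes without single libraries ranged from 0.09 to 0.23 for Chek2. Those of Rad9a ranged from -0.13 to -0.07 and those of Trp53inp1 from -0.40 to -0.18. With library size alone, Bax and Chek2 were higher by 0.11 and 0.05 and not called, which left 1 gene called higher.

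Of 30 other known p53 targets, 18 were higher and 10 lower (median 0.25), or 14 and 11 with library size alone. The shares over all genes tested were 33.3% and 33.4% with TMM scaling, and library size alone gave 3977 higher and 6393 lower of 15220. Fas, a death receptor, measured 22.3, 18.8 and 17.8 CPM in Null and 39.7, 40.98 and 41.4 CPM in DKO libraries. Pmaip1, which encodes the BH3-only protein Noxa, was higher by 2.81 ± 0.06. Eda2r, a receptor of the TNF family, fell from 32.00, 29.4 and 32.2 CPM to 0.361, 0.348 and 0.336 CPM, and the mTORC1 inhibitor Ddit4 was lower at -1.43 ± 0.03.

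Cell cycle genes differed in both directions, as did all genes tested. Calls took in 71.4% of replication genes, 58.3% of genes of G2 and mitosis and 87.0% of regulators of G1, beside 66.7% of all genes tested. Of 35 replication genes, 14 were higher and 11 lower (median 0.04), and of 36 genes of G2 and mitosis, 9 and 12 (median -0.01). Over all genes tested, 33.3% were higher and 33.4% lower. With library size alone the balance of the replication genes turned, to 7 higher and 17 lower, and the genes of G2 and mitosis became 5 and 21. The balance over all 15220 genes tested moved the same way, to 3977 higher and 6393 lower. Ccne1 (cyclin E1) and the proliferation marker Mki67 were higher by 0.90 and 0.42, and E2f2 and the separase gene Espl1 were lower at -1.21 and -0.62. Of 23 regulators of G1, 7 were higher and 13 lower (median -0.14), or 4 and 14 with library size alone, and without Null replicate 3 the number higher was 4. Cyclin D1 (Ccnd1) measured 182, 181 and 182 CPM in Null and 32.7, 29.1 and 27.01 CPM in DKO libraries, and its kinase partner Cdk6 was lower at -2.36 ± 0.08. The inhibitor genes Cdkn2a and Cdkn2d were lower at -0.74 and higher by 0.85. Cdk4 was at 472 ± 7.56 CPM (SD, n = 3) in Null and 429.8 ± 3.44 CPM in DKO libraries, which differed by -0.13 ± 0.03 on the log2 scale (adjusted p = 0.00179). Cdk7 did not pass the threshold, at 66.8 ± 0.954 and 68.6 ± 1.20 CPM (0.04 ± 0.04, adjusted p = 0.422).

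The largest rises among genes with at least 10 CPM in the higher genotype included Adamts9, a matrix protease. It measured 0.516, 0.415 and 0.185 CPM in Null and 19.5, 16.9 and 17.1 CPM in DKO libraries. The matrix protein Tnn was higher by 5.14 ± 0.09. The p53 relative Trp63 stood at 0.688, 0.768 and 0.819 CPM in Null and 22.8, 21.9 and 24.2 CPM in DKO MEFs. Cxcr6, Chil1, Mgll, Sema3d, Tgtp1, Tbx4, Olfm1 and Mfsd6 lay between 4.16 and 4.83 on the log2 scale. Falls were larger. Sox11, a transcription factor of progenitor cells, went from 94.2, 98.2 and 95.3 CPM to 0.120, 0.304 and 0.352 CPM. Rgs17, a regulator of G protein signalling, held 2595 counts over the Null libraries and 3 over the DKO libraries, a ratio of 893 (95% exact interval from counting error only, 305 to 4334). Ptprg, Zdhhc15, Emb, Hand2, Tmem47, Chic1, Mab21l2, Scrn1, Mmp16 and Tenm3 lay between -8.49 and -7.74. That the groups of these genes did not overlap was set by the rule, and 70.5% of all genes tested had groups without overlap. With at least 1 CPM in every library of a genotype and 3 or fewer counts over the libraries of the other, 39 genes were detected in Null and not in DKO MEFs, and 5 in DKO and not in Null MEFs. The latter, named here after their values were seen, were Gdf5, Wfdc1, Col4a3, St18 and Gm2016. Gdf5, a growth factor of joint development, measured 0, 0 and 0.0154 CPM in Null and 2.81, 2.78 and 2.48 CPM in DKO libraries.

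**Figure D3:**
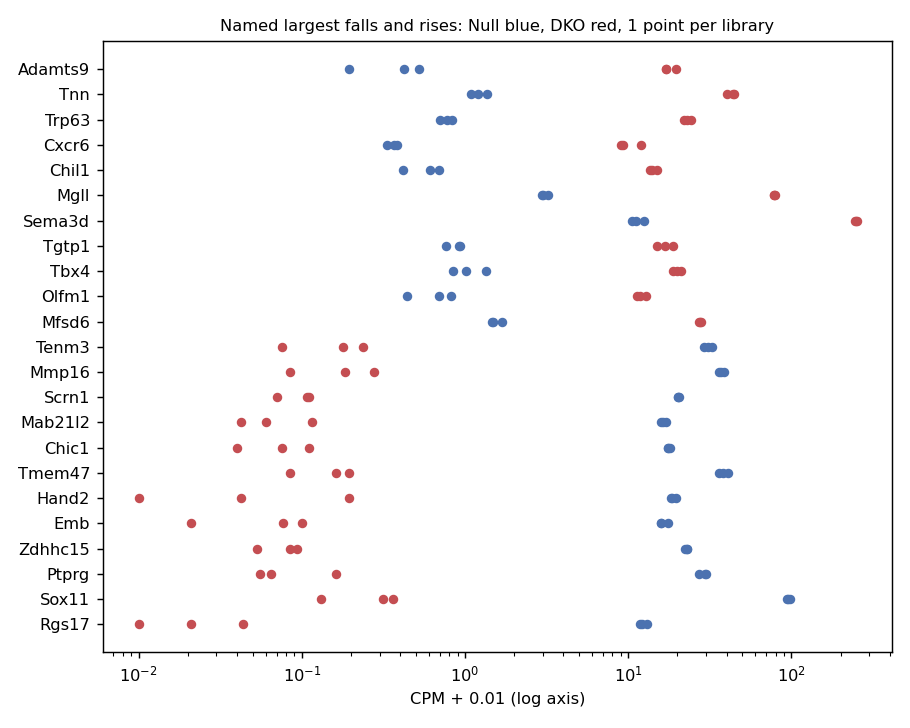
CPM of the named largest rises and falls in each untreated library, on a log axis after adding 0.01. Genes that fell lie at the left of the axis in DKO libraries and above 10 CPM in Null libraries.

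Hox genes, which record position along the body and limb axes, differed in all 33 members tested of 39 in the table, 27 lower and 6 higher, beside 33.4% and 33.3% over all genes tested. Under the 1 CPM filter, which tests fewer genes, 14 were lower, a count that does not separate lost calls from members left untested. The median was -4.68 on the log2 scale, or -3.31 with the genes at 0 in every DKO library set to the limit that 3 counts over the group allow. Members of low paralogue number, and every tested member of HoxB and HoxC, were lower. Hoxb9 measured 41.2, 40.4 and 42.9 CPM in Null and 0.211, 0.424 and 0.0503 CPM in DKO libraries. Hoxb13 was at 0 in every DKO library and at 5.30, 4.89 and 4.56 CPM in Null libraries, at least 359-fold lower, and Hoxb7 was lower at -6.12 ± 0.47. The distal members of HoxA and HoxD went the other way. Hoxd13 rose from 29.1, 26.9 and 26.4 CPM to 219, 216 and 211 CPM, and Hoxa13 from 0.786, 1.15 and 1.31 CPM to 19.99, 17.2 and 16.5 CPM. Hoxa11 and Hoxd11 were higher by 2.79 and 1.15. Hoxa10, between these blocks, was higher by 0.16. That call was lost with library size alone, at 0.04, and with a mean of at least 1 CPM required. It was also lost without Null replicate 1 or 2 or DKO replicate 1 or 2. Without single libraries the log2 fold change of Hoxa10 ranged from 0.10 to 0.21 (adjusted p up to 0.186).

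**Figure D4:**
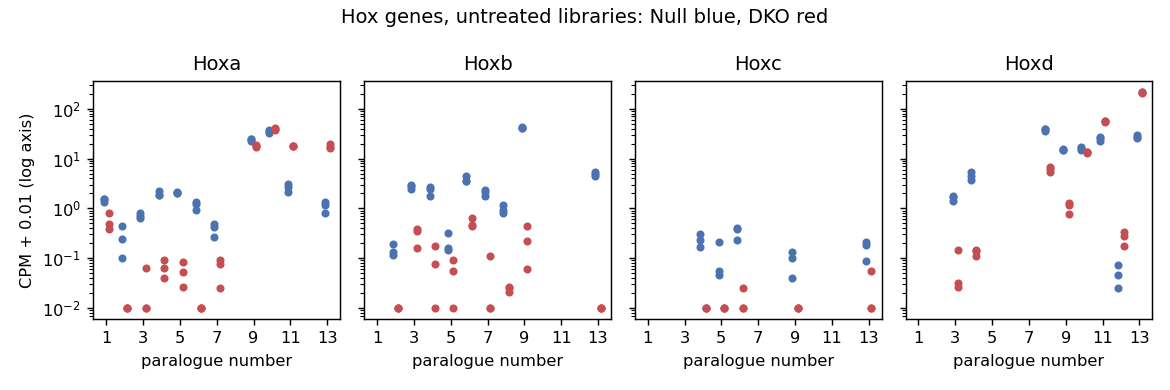
CPM of each tested Hox gene in each untreated library, on a log axis after adding 0.01, by cluster and paralogue number. Null libraries lie above DKO libraries for most genes, and DKO libraries above Null libraries at Hoxa11, Hoxa13, Hoxd11, Hoxd12 and Hoxd13.

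Of 59 other transcription factors of limb and trunk position, 25 were higher and 26 lower (median 0.00, or -0.09 over detected genes with those at 0 in a genotype at their limit), where all genes tested gave 33.3% and 33.4%. Tbx4, a hindlimb factor, was at 1.01, 0.830 and 1.34 CPM in Null and 19.9, 21.1 and 18.8 CPM in DKO libraries. Its forelimb counterpart Tbx5, named here after its values were seen, was at 5.91, 5.98 and 4.91 CPM and 0.0301, 0.0435 and 0.0671 CPM. The limb factors Lhx9 and Lmx1b were higher by 3.98 and 3.56, and Hand2, Mab21l2 and Tbx3 were lower at -8.16, -8.06 and -7.01. Of 19 imprinted genes, 13 were lower and 3 higher (median -1.31, or -1.36 by the same limit). Peg10 and Mest were lower at -4.98 and -4.80, and Plagl1, a zinc finger factor, was higher by 2.99.

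Genes of the extracellular matrix differed in both directions, as did all genes tested (33.3% higher, 33.4% lower). Of 40 collagen chains, 19 were higher and 10 lower, with a median of 0.54 (0.70 with undetected chains left out and chains at 0 in a genotype at their limit). Under the 1 CPM filter, which tests fewer genes, 6 chains were lower, a count that does not separate lost calls from chains left untested. The fibrillar chain Col3a1 measured 196, 188 and 199 CPM in Null and 1219, 1226 and 1248 CPM in DKO libraries. Col10a1 and Col6a3 were higher by 3.59 and 3.16, while the cartilage collagen Col2a1 and Col8a1 were lower at -4.73 and -3.93. Among 44 other matrix proteins, 22 were higher and 16 lower (median 0.10). Periostin (Postn) rose from 8.45, 8.11 and 9.50 CPM to 148, 147 and 154 CPM, and Thbs2 was higher by 4.15. The basement membrane genes Lama2 and Nid1 were lower at -7.24 and -6.12. Of 30 matrix enzymes and inhibitors, 17 were higher and 11 lower (median 0.53), with the collagenase Mmp13 at 3.55 and the crosslinking enzyme Loxl2 at -3.11. Contractile genes and targets of serum response factor were higher in 16 of 27 cases and lower in 5 (median 0.44). Smooth muscle actin (Acta2) and Ctgf were higher by 1.40 and 1.88, but calponin (Cnn1) and Ankrd1 were lower at -4.22 and -4.19.

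Among the lists, interferon-stimulated genes had the largest share of members called in 1 direction, with 33 of 37 higher and 1 lower, against 33.3% higher and 33.4% lower over all genes tested. Oas2, an antiviral sensor, measured 3.42, 3.13 and 3.88 CPM in Null and 20.5, 19.4 and 20.6 CPM in DKO libraries, and the antiviral GTPase Mx1 was higher by 1.91. The list median was 0.75, and the member called lower was Ifi27 at -0.68. Genes of class I antigen presentation, which interferon also induces, were not uniform: 5 of 13 were higher and 7 lower (median -0.21). H2-K1 fell from 686, 656 and 675 CPM to 165, 167 and 167 CPM, and its transactivator Nlrc5 was lower at -1.79, whereas the peptide trimming enzyme Erap1 was higher by 0.77. Of 24 chemokines and cytokines, 17 were higher and 4 lower (median 0.71). Ccl20 stood at 22.8, 19.3 and 21.3 CPM in Null and 164, 163 and 174 CPM in DKO MEFs, while the cytokine genes Tslp and Il11 had log2 fold changes of 2.98 and -1.52.

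Metabolic and stress lists held members in both directions, with medians below that of all genes tested, of which 33.3% were higher and 33.4% lower. Sterol and fatty acid synthesis had 12 members higher and 17 lower of 31 (median -0.16), with Insig1, a feedback regulator, at 1.05 and Acss2 at -0.79. Glycolysis and hypoxia genes had 8 higher and 14 lower of 32 (median -0.08), the lactate exporter Slc16a3 falling furthest at -3.88. In the integrated stress and unfolded protein responses 12 of 32 were higher and 14 lower (median -0.03), with members from Cth at -0.87 to Manf at 0.73. Targets of NRF2, the oxidative stress factor, were higher in 7 and lower in 13 of 23 cases (median -0.32), from Blvrb at -1.16 to Osgin1 at 0.94.

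The labelled cell type was checked against its markers. Summed over 13 fibroblast markers, Null libraries held 7295, 7282 and 7402 CPM and DKO libraries 11935, 12531 and 12005 CPM, with Vim the most abundant. Of these markers 11 were higher in DKO MEFs and 1 lower (2 with library size alone), beside 33.3% and 33.4% over all genes tested. Pdgfra rose from 21.5, 20.8 and 20.3 CPM to 187, 197 and 207 CPM, and Thy1 fell from 4.50, 4.10 and 4.03 CPM to 0.0602, 0.0326 and 0.0168 CPM. Macrophage markers summed to 18.2, 19.6 and 16.4 CPM in Null and 9.42, 8.17 and 7.62 CPM in DKO libraries, most of it Cd14, and 9 of 11 were under 1 CPM in all libraries, with 2 at 0 in each. Of those tested, 1 was higher and 2 lower, or 0 and 1 under the 1 CPM filter. With thinned libraries, or without Null replicate 1, DKO replicate 1 or DKO replicate 2, 0 were higher. Epithelial markers summed to 2.68, 2.32 and 2.95 CPM and 5.25, 5.18 and 5.96 CPM, most of it Krt8, with 1 marker higher and 2 lower. With robust dispersion, or without Null replicate 1 or DKO replicate 3, 2 were higher, and under the 1 CPM filter 0 were lower. Endothelial markers stayed under 1 CPM in sum, with 0 called in either direction, and skeletal muscle markers ranged from 0.762, 1.03 and 1.36 CPM in Null to 3.58, 4.11 and 3.52 CPM in DKO libraries, led by Acta1, the 1 marker called higher. Adipocyte markers summed to 10.9, 10.4 and 12.2 CPM and 30.1, 31.4 and 27.95 CPM, with Cebpa the most abundant. Of these markers 2 were higher, with Fabp4 at 3.86, and 1 was lower. Neural markers summed to 353, 341 and 347 CPM and 144, 149 and 150.2 CPM, mostly Nes, with 3 markers lower. Cartilage and bone markers summed to 105, 111 and 110.5 CPM and 100.1, 101 and 103 CPM, mostly Runx2, with 1 marker higher and 2 lower. Many markers were under 1 CPM in all libraries: 7 of 8 epithelial, 5 of 6 skeletal muscle and 3 of 6 adipocyte markers. The same held for 4 of 7 neural and 3 of 7 cartilage and bone markers. The part of these markers in the other differences was not tested, and fewer cells of a type cannot be told apart from less RNA per cell.

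Transcripts of the Y chromosome were present in both lines, and Xist was under 0.1 CPM in every library. Of 5 sex-linked genes tested, 4 were higher and 0 lower, beside 33.3% and 33.4% over all genes tested. Ddx3y, an RNA helicase gene, measured 81.6, 85.5 and 86.9 CPM in Null and 219, 211 and 221 CPM in DKO libraries. Eif2s3y, Kdm5d and Uty were likewise higher, by 1.12, 0.96 and 0.94. The difference between the lines was also uneven over the other chromosomes. The median log2 fold change was highest on chromosome X at 0.44 over 472 genes, where 62.5% were called higher and 17.2% lower. It was 0.30 on chromosome 1 and 0.26 on chromosome 9. The lowest medians were -0.40 on chromosome 15, with 12.4% called higher and 60.3% lower, and -0.35 on chromosome 19. With library size alone the medians of chromosomes 1 and 9 were 0.18 and 0.14. Taken by library, as the median of log2(CPM + 0.5) minus the Null mean, which understates low genes, chromosome X stood at 0.37, 0.39 and 0.39 and chromosome 15 at -0.28, -0.26 and -0.29 in the DKO libraries. These medians were described without a test, and chromosome copy number was not measured.

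**Figure D5:**
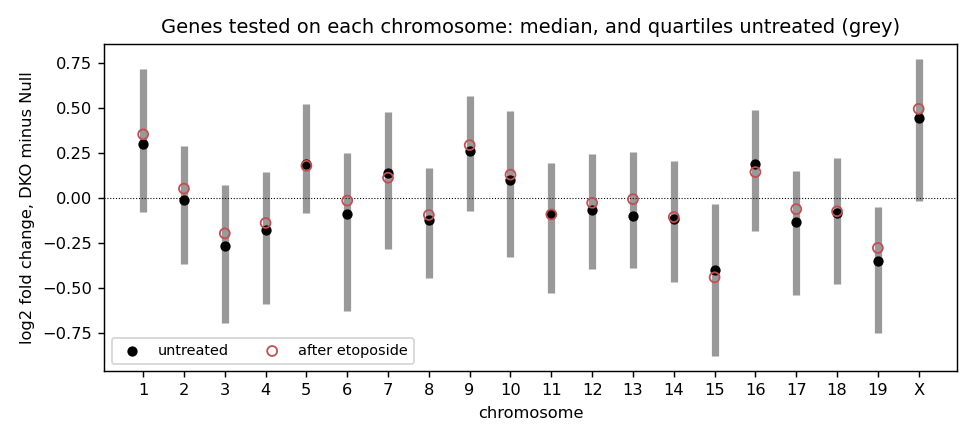
Median log2 fold change (DKO minus Null) of the genes tested on each chromosome, untreated (filled) and after etoposide (open), with the range between the quartiles of untreated values in grey. Chromosomes X, 1 and 9 lie highest and 15 and 19 lowest in untreated cells, and X stood at 0.49 and 15 at -0.44 after etoposide.

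Etoposide libraries of the same lines share no library with the untreated comparison. After etoposide 74% of genes passed the threshold between the genotypes. Of the 10157 genes called in untreated cells, 6504 were called with the same sign after etoposide (64.03% of the untreated calls and 57.7% of the etoposide calls), 1742 with the opposite sign, and 1911 were not called. For calls of at least 2-fold these numbers were 2169, 193 and 456. The interaction, which tests whether the genotype difference itself depended on etoposide, was called for 8226 genes (54%). Each of the largest rises and falls named above kept its sign and its call after etoposide. Mitf did not keep its sign: it was higher in untreated DKO MEFs and, at -0.70, lower after etoposide. Fas and Pmaip1 did the same, at -1.98 and -0.36 after etoposide. Of the 16 DNA damage genes the median was -0.27 untreated and -0.87 after etoposide. The study drew these genes from this experiment, most of them as lower in DKO MEFs after etoposide, so the lower median there is partly set by that choice. For the other p53 targets the median was 0.25 and -0.98, and for all genes tested -0.02 and -0.00446.

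The library kit named in the methods keeps the strand of each transcript, but the strand setting of the counting is not given in the sources used here. Counts are uncertain to that extent for named genes that share exons with a gene on the other strand: Idua, Siae, Arsa, Ctsz, Ctsl, Ctsw, Cln3, Atp6v0a4, Rptor, Rb1cc1, Gabarapl1, Rad9a, Cdkn1a, Cdk4, Ccnd1, Cdk6, Adamts9, Mgll, Ptprg, Emb, Hand2, Tmem47, Mab21l2, Scrn1, Tenm3, Hoxa11, Tbx3, Col10a1, Lama2, Nid1, Loxl2, Ctgf, Plagl1, Mest, Nlrc5, Erap1, Acss2, Manf, Xist, Pdgfra, Krt8, Gdf5 and Col4a3. Counts of H2-K1 and Tgtp1, which have close paralogues, are uncertain as well.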

How the data were processed

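The authors deposited 1 table of raw counts per gene symbol. Per the study's methods, reads were trimmed with Cutadapt where required and uniquely aligned HISAT2 pairs were counted with HTSeq. The submitters' processing notes name featureCounts and mm10, but the summary lines of the deposited counts carry the names that HTSeq gives. Versions and the strand setting are not given in the sources used here. The 24421 genes were analysed. The 5 summary lines stayed out of library sizes and tests: in the 6 untreated libraries reads outside any gene took 20.2 to 24.2% of all lines, reads without a unique place 15.9 to 19.3%, and reads over several genes 0.429 to 0.513%.

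The test was the quasi-likelihood F test of edgeR 4.0.16 (R 4.3.3; glmQLFit, glmQLFTest) after filterByExpr on the 4 groups and TMM scaling. All 12 libraries entered 1 model of the 4 groups, without the replicate number, and p-values were adjusted over all genes tested by the Benjamini-Hochberg method. This edgeR fits a legacy version of the quasi-likelihood estimates unless told otherwise. That version was run first. The newer version was taken for all results after both counts of calls had been seen, to follow the processing already used on these data, and the legacy counts are given as an alternative. Each SE is the size of the log2 fold change over the square root of F, and CPM use TMM-scaled library sizes. A gene at 3 or fewer counts over a group was taken as not detected. Symbols were matched to GENCODE M21, 23350 directly and 650 by synonym.

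Members and lists were chosen with earlier results of these data known. Named genes were the MiT/TFE family, 16 genes of the study with Cdk4 and Cdk7, the 12 largest rises and falls among called genes with at least 10 CPM in the higher group and no overlap (predicted, clone-named and pseudogene symbols left out), and in each list up to 4 called members per direction with at least 1 CPM, of which some are given; marker and sex-linked genes at any level. A gene that the rule names is not reported here. Outside this rule, Tbx5, Hoxa10 and the genes detected in DKO MEFs alone were named after their values were seen, and Gla, Mcoln1 and Atg3 for their promoter letters. Alternatives used DESeq2 1.42.0, limma 3.58.1 (limma-trend), other scalings, filters and dispersions, 6 libraries, thinned counts, a replicate block and each untreated library left out.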

Additional observations from a re-analysis of the deposited data

Results flagged for a closer look

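The tested interaction asks whether the difference between the genotypes changed with etoposide, and each gene here passed its threshold. Values are the log2 fold change (DKO minus Null) after etoposide minus that without it, so a negative value means that this difference was lower after etoposide than without it, and not that the gene was lower in DKO than in Null MEFs. No cause was tested. Genes named for their size in untreated cells were chosen on 1 side of this difference, so a smaller difference after etoposide is partly set by that choice. Most DNA damage genes of the study were chosen on the other side, as lower in DKO MEFs after etoposide, so their negative values are partly set as well. Hoxb13 had 0 counts in the untreated DKO libraries and Rgs17 had 3, and the 5 genes of the last group had 3 or fewer in the untreated Null libraries, so their fitted values depend on the small count added by the fit and are no measure of size.

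Among the MiT/TFE genes and the lysosomal, mTORC1 and autophagy genes, the interaction was negative for Mitf (-2.98), Atp6v0a4 (-1.71), Ctsh (-1.29), Atp13a2 (-1.14), Rb1cc1 (-1.06), Scarb2 (-1.05), Cln3 (-1.01), Ctsd (-0.94) and Gla (-0.90). It was also negative for Manba (-0.52), Fnip1 (-0.34), Siae (-0.30), Ulk2 (-0.22), Atg3 (-0.21), Ctsz (-0.20), Lamp2 (-0.19) and Atp6v1a (-0.15). Positive values were found for Rragd (2.13), Gabarapl1 (0.80), Rptor (0.75), Tfeb (0.49), Ctsw (0.36), Tfe3 (0.28) and Gaa (0.19).

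Among the DNA damage, p53 and cell cycle genes, the interaction was negative for Pmaip1 (-3.17), Fas (-3.03), Mdm2 (-1.48), Trp53inp1 (-1.17), Bax (-0.92), Chek2 (-0.90), Foxo3 (-0.66), Wrap53 (-0.63) and Sesn1 (-0.48). It was also negative for Ccne1 (-0.47), Rad9a (-0.46), Cdkn2d (-0.38), Cdkn1a (-0.34), Ddit4 (-0.27) and Cdkn2a (-0.16). Positive values were found for E2f2 (0.87), Cdk6 (0.59), Espl1 (0.48) and Cdk4 (0.14).

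Among the largest rises and falls, the interaction was negative for Cxcr6 (-3.63), Adamts9 (-2.32), Trp63 (-2.06), Mgll (-1.81), Olfm1 (-1.70), Chil1 (-1.43), Tbx4 (-1.41), Sema3d (-1.16) and Tgtp1 (-1.16). It was also negative for Mfsd6 (-1.02). Positive values were found for Rgs17 (4.05), Tenm3 (3.26), Mmp16 (2.92), Scrn1 (2.81), Ptprg (2.46), Zdhhc15 (2.36) and Chic1 (1.56).

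Among positional, matrix, contractile and imprinted genes, the interaction was negative for Thbs2 (-4.07), Lhx9 (-2.79), Lmx1b (-1.53), Hoxa13 (-1.34), Ctgf (-1.33), Plagl1 (-1.02), Postn (-0.98), Col10a1 (-0.83) and Hoxa11 (-0.83). It was also negative for Hoxd13 (-0.57), Hoxd11 (-0.48) and Col6a3 (-0.27). Positive values were found for Hoxb13 (4.76), Hoxb9 (3.97), Lama2 (3.46), Col8a1 (1.22), Loxl2 (1.13), Peg10 (0.99) and Nid1 (0.52).

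Among immune, metabolic and stress genes and the markers, the interaction was negative for Krt8 (-2.41), Cd14 (-1.34), Insig1 (-1.27), Osgin1 (-1.23), Pdgfra (-1.03), Tslp (-1.03), Fabp4 (-0.82), Acss2 (-0.52) and Eif2s3y (-0.48). It was also negative for Nlrc5 (-0.36), Ddx3y (-0.19) and Erap1 (-0.15). Positive values were found for Thy1 (2.77), Slc16a3 (1.89), Oas2 (0.93), Cth (0.88), Ccl20 (0.88), H2-K1 (0.71), Kdm5d (0.43), Ifi27 (0.38) and Blvrb (0.36).

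Among the genes detected in DKO and not in Null MEFs, the interaction was negative for Gm2016 (-12.22), Gdf5 (-6.63), Wfdc1 (-6.55), Col4a3 (-5.77) and St18 (-5.28).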

How the results depend on the processing

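The count of genes that differ stayed between 9197 and 10370 over the alternatives, 10263 with the legacy quasi-likelihood fit (5080 higher, 5183 lower, 1198 and 1747 at 2-fold or more), a choice made after seeing the data. Leaving out each untreated library in turn gave 9622 to 9737 genes. No gene called both in the reported fit and in an alternative changed sign. Genes at least 2-fold lower numbered 966, and higher 856, with a mean of at least 1 CPM required, a filter that tests 12026 genes. At 8-fold or more, counted under the alternatives after seeing the data, that filter gave 128 higher and 326 lower, and limma-trend 158 and 447. With library size alone, 10 lysosomal membrane proteins were higher and 9 V-ATPase subunits lower. Of 2494 values of 147 named genes under alternatives, 2457 kept direction and side of the threshold, 32 kept direction and lost the call, and 5 changed sign, none of them called: Cdk7 with library size alone (-0.0822), and Xist with limma-trend (0.00605) and without Null replicate 2, Null replicate 3 or DKO replicate 1 (0.41, 0.41 and 0.31; range over left-out libraries -0.73 to 0.41). Chromosome medians near 0 also changed sign, chromosome 2 with the 1 CPM filter (0.00648) and chromosome 10 with library size alone (-0.00567). The cause was not tested. Same-numbered replicates did not deviate together (correlations over genes of -0.0320, 0.0133 and 0.00395), so the numbers were not taken to pair samples, and the replicate block gave 10171 genes, 5066 higher and 5105 lower (1181 and 1649 at 2-fold or more). Of the named genes, Rad9a and Chek2 lost their calls with the block (adjusted p = 0.0570 and 0.0559). Depth limits genes near 3 counts in a genotype, whose fitted folds depend on the small count added by the fit.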

Other observations

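Windows of 10 Mb with at least 20 tested genes were described after seeing the chromosome medians. The highest median log2 fold change (DKO minus Null, untreated) among them was 0.80 over 29 genes on chromosome X, with 0.72 after etoposide, and the lowest was -0.67 over 27 genes on chromosome 6, with -0.26 after etoposide. No test was run on these windows.

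The ribosomal transcript Rn45s took 2.20 to 2.89% of counts on genes in the untreated Null libraries and 1.66 to 1.95% in the untreated DKO libraries. TMM factors were 0.962 to 0.969 in Null and 0.884 to 0.893 in DKO libraries. Genes with more than 3 counts numbered 14118 to 14379 in Null and 13435 to 13845 in DKO libraries. Their part in the differences between the genotypes was not tested.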
